A study of Chlamydomonas reinhardtii with 9 samples.

Results

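The genes described here are 45 nuclear genes of Chlamydomonas reinhardtii, a unicellular green alga, whose messenger RNA was at most 0.5 times the wild-type level in the mutant crpaf1-1 and close to the wild-type level in the mutant crskip-1. They were chosen from their measured levels. Counts were divided by each library's total and expressed per 1000000 (CPM), and a gene was taken when its mean over the 9 libraries was 2 CPM or more, its crpaf1-1 mean was at most 0.5 times its wild-type mean, and its crskip-1 mean was no more than 20% below or 25% above its wild-type mean, a range called the window from here on. Of 14621 listed genes 14540 are nuclear, here meaning on neither organelle genome, and 12279 of those reached 2 CPM. Because the rule used all 3 group means, the levels of the 45 genes in the groups are a description. Fold changes and calls from fits over all genes are printed beside them to give size and precision, and support nothing about the 45 genes, since these were picked from the same libraries.

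The study sequenced RNA from crpaf1-1, crskip-1 and wild type, 3 libraries each. Per the labels, all were strain CC5325 grown in liquid TAP medium, which contains acetate, at 22 °C in a cycle of 14 h light and 10 h dark, and were harvested late in G1; RNA with polyadenylated tails was selected on oligo(dT) beads. The sources used here give neither the kind of mutation in each mutant nor whether replicates came from separate cultures, so the spread between replicates may be technical. Libraries held 13907142 to 19725439 counts. The deposited IDs could not be paired with gene symbols, so the products of the 45 genes are not known here, and the mutated genes themselves were not looked up to check the labels.

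PAF1 belongs to a complex, first described in yeast, that rides with RNA polymerase II as it transcribes and helps chromatin-modifying enzymes and RNA-processing factors act along the gene. SKIP is a conserved protein found in the spliceosome, the machine that removes introns, and in plants it also acts in transcription. In the plant Arabidopsis SKIP has been found to work together with the PAF1 complex. The title of the series joins both with CDKB, a kinase of the plant lineage that acts at cell division. The mutants' names refer to these factors, and the comparison made here is of transcripts lower in crpaf1-1 but not in crskip-1.

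Of the nuclear genes that reached 2 CPM, 615 were at or below 0.5 times wild type in crpaf1-1. In crskip-1, 560 of these 615 genes (91.1%) were below 0.8 times wild type, and 345 of them were at or below 0.5 times. The 45 genes make up 7.32% of the 615, and 10 more were above the window in crskip-1. Of all 12279 nuclear genes that reached 2 CPM, 7855 had crskip-1 in the window. How many of them lay below the other bounds in crskip-1 was not counted, so nothing is read from the 560 and the 345. Both mutants were set against the same wild-type libraries, so the ratios share their denominators. With the mutants exchanged, the same rule found 101 genes. All these ratios use library totals. On that scale the median log2 fold change of all genes tested was 0.09 in crpaf1-1 and -0.12 in crskip-1, both against wild type. The exchanged rule was not applied under another scaling, so nothing is read from 101 beside 45.

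**Figure D1:**
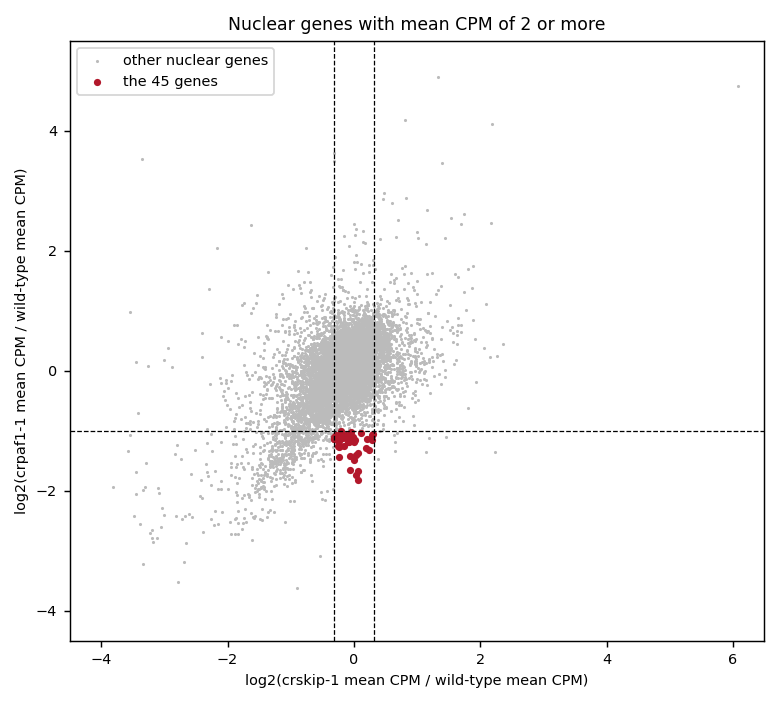
Each point is a nuclear gene with a mean of 2 CPM or more; the vertical axis is the log2 ratio of crpaf1-1 to wild-type mean CPM and the horizontal axis the log2 ratio of crskip-1 to wild-type mean CPM. Dashed lines are the bounds of the rule, and the 45 genes (red) lie just below the crpaf1-1 bound, while most of the 615 genes under that line lie to their left.

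Across the 45 genes the ratio of crpaf1-1 to wild type ran from 0.284 to 0.497, with a median of 0.451 and quartiles of 0.415 and 0.467. Most of the genes thus lay near the bound: 24 were above 0.45, and 9 were below 0.4. The summed level of the 45 genes was 336, 326 and 368 CPM in the crpaf1-1 libraries, 694, 721 and 704 CPM in the crskip-1 libraries and 811, 752 and 751 CPM in the wild-type libraries. In edgeR's quasi-likelihood fit over all genes, with TMM scaling (a factor per library that evens out differences in composition), 45 of 45 were called lower in crpaf1-1 than in wild type at an adjusted p under 0.05, where 29.8% of the 13376 genes tested were called lower. Their log2 fold changes ran from -1.88 to -1.09 with a median of -1.23 (SE per gene 0.07 to 0.34), against a median of 0.01 over all genes tested. The 95% interval of the log2 fold change lay wholly below -1 for 21 of the 45. Every crpaf1-1 library was below every wild-type library for 45 of 45 genes, where that held for 25.8% of genes tested, and below every crskip-1 library for 45 of 45, where it held for 15.3%. Nothing is read from these counts, since the rule fixed the direction. With scaling by library size alone, 39.7% of the genes called between crpaf1-1 and wild type were lower, against 51.1% with TMM.

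**Figure D2:**
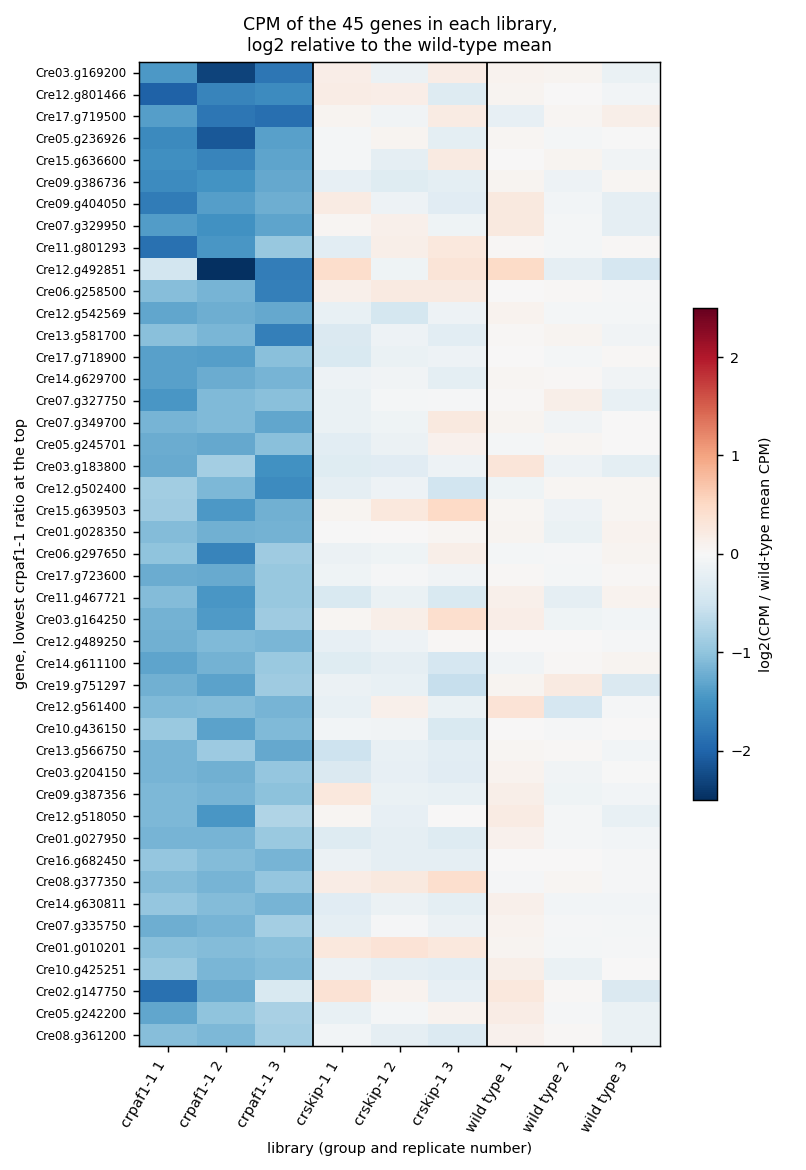
Rows are the 45 genes, ordered by their ratio of crpaf1-1 to wild type, and columns are the 9 libraries; colour is the log2 of a library's CPM over the gene's wild-type mean. The 3 crpaf1-1 columns are blue in nearly every row and the crskip-1 columns pale, and the palest crpaf1-1 cells belong to 2 genes of few counts, Cre12.g492851 in replicate 1 and Cre02.g147750 in replicate 3.

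CPM values depend on transcript length, so levels are compared between genes per kilobase of exon. On that scale the 45 genes were of modest abundance in wild type, with a median of 2.72 CPM per kb (range 0.582 to 26.9), against 6.98 CPM per kb over the 12279 nuclear genes and 4.43 over the other 570 genes at or below 0.5 times wild type in crpaf1-1. The lowest count of any of the 45 in any library was 10.

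The gene with the most counts was Cre14.g629700_4532.v6.1 (plus strand, chromosome 14, bases 3346490 to 3353427, 13 exon blocks), where exon blocks are exons merged where they overlap. In it the crpaf1-1 libraries gave 38.3, 41.9 and 44.3 CPM, those of crskip-1 90.7, 93.1 and 82.8 CPM and those of wild type 102, 101 and 92.6 CPM. The crpaf1-1 libraries lay at less than 0.5 times any wild-type library, while the crskip-1 and wild-type ranges met, and its log2 fold change with TMM was -1.33 (SE 0.07) for crpaf1-1, and for crskip-1 it was -0.02 (SE 0.06). Per kilobase it was also the most abundant of the 45.

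In Cre17.g723600_4532.v6.1 (minus strand, chromosome 17, bases 3451231 to 3456714, 13 exon blocks), the crpaf1-1 libraries gave 21.7, 21.4 and 26.7 CPM, those of crskip-1 47.6, 50.2 and 48.7 CPM and those of wild type 52.2, 49.8 and 52.3 CPM. Its crskip-1 mean was 0.949 times wild type, and its log2 fold change in crskip-1 was 0.05 (SE 0.07). In Cre16.g682450_4532.v6.1 (minus strand, chromosome 16, bases 5496666 to 5502735, 13 exon blocks), the crpaf1-1 libraries gave 11.5, 10.6 and 10.1 CPM, those of crskip-1 20.4, 19.2 and 19.4 CPM and those of wild type 22.7, 22.8 and 22.3 CPM. In this gene the 3 wild-type libraries were almost equal and both mutants lay below them without overlap, crpaf1-1 by far the lower.

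For 4 of the other genes with high counts the crskip-1 mean was nearer the lower edge of the window. In Cre01.g027950_4532.v6.1 (plus strand, chromosome 1, bases 4171892 to 4177061, 10 exon blocks), the crpaf1-1 libraries gave 26.9, 26.9 and 31.8 CPM, those of crskip-1 48.1, 51.4 and 48.3 CPM and those of wild type 64.9, 58.3 and 57.5 CPM. In Cre03.g204150_4532.v6.1 (minus strand, chromosome 3, bases 7653030 to 7659591, 13 exon blocks), the crpaf1-1 libraries gave 24.5, 23.6 and 28.1 CPM, those of crskip-1 42.4, 47.4 and 44.7 CPM and those of wild type 58.4, 51.3 and 54.4 CPM. In Cre09.g386736_4532.v6.1 (plus strand, chromosome 9, bases 173104 to 181617, 7 exon blocks), the crpaf1-1 libraries gave 9.48, 10.0 and 11.6 CPM, those of crskip-1 24.6, 22.9 and 23.9 CPM and those of wild type 29.4, 25.8 and 29.3 CPM. In these 3 genes the crskip-1 libraries all lay below all wild-type libraries, so the label "only in crpaf1-1" rests on the width of the window. Log2 fold changes with TMM in crskip-1 were -0.17 (SE 0.07), -0.16 (SE 0.07) and -0.12 (SE 0.08) in the order given, and in crpaf1-1 they were -1.16 (SE 0.07), -1.19 (SE 0.07) and -1.53 (SE 0.08). Cre14.g630811_4532.v6.1 (plus strand, chromosome 14, bases 3545472 to 3553064, 8 exon blocks) had the same pattern, where crpaf1-1 averaged 14.0 ± 0.994 CPM, crskip-1 25.2 ± 1.31 CPM and wild type 29.5 ± 2.52 CPM (SD, n = 3 each).

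The opposite edge was held by Cre01.g010201_4532.v6.1 (plus strand, chromosome 1, bases 1811349 to 1824472, 9 exon blocks). In it the crpaf1-1 libraries averaged 10.9 ± 0.152 CPM (SD, n = 3) from 217, 191 and 185 counts, those of crskip-1 27.3, 28.7 and 27.3 CPM and those of wild type 23.8, 21.9 and 22.1 CPM. All 3 groups were apart, with crpaf1-1 lowest and crskip-1 highest, and the log2 fold change with TMM was -1.14 (SE 0.07) for crpaf1-1, and for crskip-1 it was 0.42 (SE 0.07). Its ratio of 1.23 keeps it inside the window on the scale of library totals, and with TMM scaling it leaves the window. The gap to its 5′ neighbour on the same strand, Cre01.g010150_4532.v6.1, was -4321 bases, so the 2 genes overlap. That neighbour was itself lower in crpaf1-1 (log2 -0.47), and stood at log2 0.19 in crskip-1. How reads in the overlap were counted is not known here, so the values of Cre01.g010201_4532.v6.1 are uncertain.

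The remaining genes among the 12 with the most counts were Cre07.g335750_4532.v6.1, Cre10.g425251_4532.v6.1, Cre11.g467721_4532.v6.1 and Cre14.g611100_4532.v6.1. In Cre07.g335750_4532.v6.1 (minus strand, chromosome 7, bases 3467892 to 3474350, 14 exon blocks), crpaf1-1 averaged 29.9 ± 4.33 CPM, crskip-1 57.2 ± 3.91 CPM and wild type 62.6 ± 3.38 CPM (SD, n = 3 each), and it overlaps a gene on the opposite strand by 62 bases. Cre10.g425251_4532.v6.1 (minus strand, chromosome 10, bases 1069236 to 1096132, 5 exon blocks) has the longest transcript of the 45, with 26472 exonic bases, and in it crpaf1-1 averaged 15.3 ± 1.15 CPM, crskip-1 27.5 ± 1.08 CPM and wild type 31.8 ± 3.28 CPM (SD, n = 3 each). Per kilobase its wild-type level was below the median of the 45. In Cre11.g467721_4532.v6.1 (minus strand, chromosome 11, bases 2215274 to 2218746, 4 exon blocks), crpaf1-1 averaged 8.94 ± 1.54 CPM, crskip-1 15.9 ± 1.39 CPM and wild type 19.7 ± 2.53 CPM, and in Cre14.g611100_4532.v6.1 (minus strand, chromosome 14, bases 489643 to 496237, 14 exon blocks), crpaf1-1 averaged 8.74 ± 1.27 CPM, crskip-1 15.5 ± 1.04 CPM and wild type 19.2 ± 1.07 CPM (SD, n = 3 each). Both had crskip-1 means at the lower edge of the window, at 0.805 and 0.808 times wild type.

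**Figure D3:**
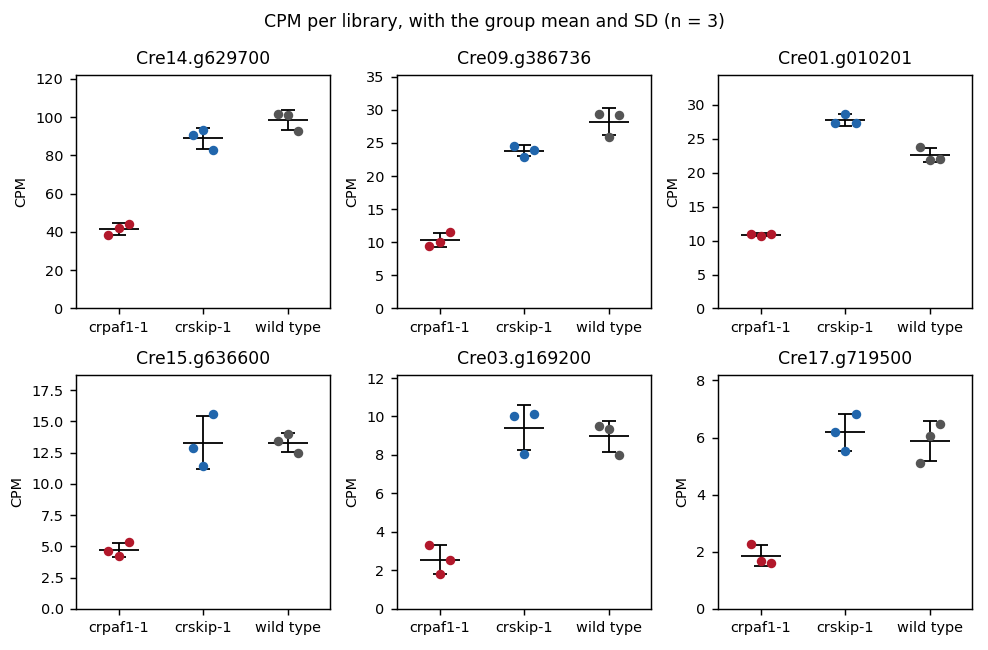
Each panel shows 1 gene, with CPM on the vertical axis from 0 and the groups crpaf1-1, crskip-1 and wild type from left to right; points are libraries and bars the group mean and SD (n = 3). In all 6 panels the crpaf1-1 points lie below the others, and Cre01.g010201 is the one whose crskip-1 points all lie above wild type.

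Among genes with a wild-type mean of 5 CPM or more, the lowest ratio was that of Cre03.g169200_4532.v6.1 (plus strand, chromosome 3, bases 3739805 to 3742083, 4 exon blocks), at 0.284 times wild type. In it the crpaf1-1 libraries gave 3.3, 1.8 and 2.55 CPM, those of crskip-1 10.0, 8.06 and 10.1 CPM and those of wild type 9.52, 9.35 and 8.02 CPM. The crpaf1-1 libraries were well apart from the rest and spread the most relative to their mean, while the crskip-1 and wild-type libraries overlapped. Its log2 fold change with TMM was -1.88 (SE 0.17) for crpaf1-1, and for crskip-1 it was 0.19 (SE 0.14). It overlaps a gene on the opposite strand by 8 bases, and that gene was itself higher in crpaf1-1 (log2 0.68).

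Cre17.g719500_4532.v6.1 (minus strand, chromosome 17, bases 2946397 to 2953942, 13 exon blocks) followed at 0.315 times wild type, and in it the crpaf1-1 libraries gave 2.28, 1.68 and 1.6 CPM, those of crskip-1 6.18, 5.52 and 6.83 CPM and those of wild type 5.12, 6.07 and 6.48 CPM. In Cre15.g636600_4532.v6.1 (minus strand, chromosome 15, bases 595743 to 606995, 12 exon blocks), the crpaf1-1 libraries gave 4.61, 4.21 and 5.33 CPM, those of crskip-1 12.9, 11.4 and 15.6 CPM and those of wild type 13.4, 14.0 and 12.5 CPM. In both genes the crskip-1 and wild-type libraries overlapped, and in the second their means were nearly equal. In Cre07.g329950_4532.v6.1 (minus strand, chromosome 7, bases 2589319 to 2592361, 7 exon blocks), the crpaf1-1 libraries gave 3.4, 3.14 and 3.61 CPM, those of crskip-1 9.33, 9.8 and 8.34 CPM and those of wild type 10.6, 8.64 and 7.71 CPM, with crskip-1 inside the wild-type range. Log2 fold changes with TMM in crpaf1-1 were -1.73 (SE 0.17), -1.58 (SE 0.13) and -1.49 (SE 0.14), and introns made up 67.7% of the span of the first, the highest share among the 45.

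The other genes named for a low ratio lay between 0.415 and 0.440 times wild type, closer together than the SE of their fold changes. In Cre17.g718900_4532.v6.1 (plus strand, chromosome 17, bases 2873016 to 2882096, 20 exon blocks), crpaf1-1 averaged 7.44 ± 0.998 CPM, crskip-1 15.3 ± 1.39 CPM and wild type 17.7 ± 0.462 CPM (SD, n = 3 each). In Cre13.g581700_4532.v6.1 (plus strand, chromosome 13, bases 2701688 to 2706992, 12 exon blocks), crpaf1-1 averaged 3.29 ± 0.758 CPM, crskip-1 6.66 ± 0.572 CPM and wild type 7.91 ± 0.451 CPM, and in Cre12.g542569_4532.v6.1 (minus strand, chromosome 12, bases 9265020 to 9272475, 11 exon blocks), crpaf1-1 averaged 2.5 ± 0.0751 CPM, crskip-1 5.1 ± 0.562 CPM and wild type 6.03 ± 0.292 CPM (SD, n = 3 each). In these 3 genes the crskip-1 mean was 0.843 to 0.860 times wild type. In Cre07.g349700_4532.v6.1 (minus strand, chromosome 7, bases 5281594 to 5285620, 7 exon blocks), crpaf1-1 averaged 4.09 ± 0.271 CPM, crskip-1 9.34 ± 1.45 CPM and wild type 9.35 ± 0.481 CPM, and in Cre05.g245701_4532.v6.1 (plus strand, chromosome 5, bases 763969 to 775484, 14 exon blocks), crpaf1-1 averaged 4.61 ± 0.424 CPM, crskip-1 9.83 ± 1.31 CPM and wild type 10.5 ± 0.305 CPM (SD, n = 3 each). Here the crskip-1 and wild-type libraries overlapped. The second of them overlaps a gene on the opposite strand by 779 bases, and that gene was also lower in crpaf1-1 (log2 -0.96, SE 0.09), with a log2 fold change of -0.58 in crskip-1, so its counts are uncertain.

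Only 2 of the 45 genes had over 20 exon blocks. In Cre07.g327750_4532.v6.1 (plus strand, chromosome 7, bases 2272460 to 2283500, 22 exon blocks), the crpaf1-1 libraries gave 3.4, 4.32 and 4.5 CPM, those of crskip-1 8.32, 8.99 and 9.2 CPM and those of wild type 9.52, 10.3 and 8.21 CPM. In Cre15.g639503_4532.v6.1 (plus strand, chromosome 15, bases 989596 to 1007364, 26 exon blocks), the crpaf1-1 libraries gave 2.74, 1.85 and 2.19 CPM, those of crskip-1 5.3, 6.02 and 7.12 CPM and those of wild type 5.23, 4.64 and 5.25 CPM. The first was level between crskip-1 and wild type, and the second was higher in crskip-1 at log2 0.40 (SE 0.15) with TMM, and did not pass in 7 of the 16 alternative fits. None of the 45 had a single exon block, and no 2 of them lay next to each other on a chromosome.

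At the bound, the members with the highest ratios were Cre08.g361200_4532.v6.1 at 0.497, Cre05.g242200_4532.v6.1 at 0.492 and Cre02.g147750_4532.v6.1 at 0.487 times wild type. The nuclear genes just beyond it, with crskip-1 inside the window, were Cre03.g168400_4532.v6.1 at 0.503, Cre09.g386850_4532.v6.1 at 0.504 and Cre14.g617250_4532.v6.1 at 0.505. These 6 values differ by less than the spread between replicates. At the lower crskip-1 bound, 15 genes at or below 0.5 in crpaf1-1 fell at 0.75 to 0.8 times wild type in crskip-1, and 0 lay just beyond the upper bound, up to 1.3 times wild type.

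The rule asks for crskip-1 to be near wild type, and the data allow that to be measured with limited precision. The crskip-1 mean was below the wild-type mean in 32 of the 45 genes and above it in 13; 17 lay below 0.9 times wild type, 22 between 0.9 and 1.1 and 6 above 1.1. These ratios use library totals, on which the median of all genes tested was shifted by -0.12 (log2) in crskip-1 against wild type. With TMM, which removes that shift, the median ratio of the 45 genes was 1.03 in place of 0.949. In the TMM fit 0 of the 45 genes were called lower in crskip-1 than in wild type and 4 were called higher (edgeR, adjusted p under 0.05), where 25.1% and 24.4% of genes tested were called lower and higher. At an unadjusted p under 0.05 in the same fit, 2 were lower and 5 higher. The share of all genes at that threshold was not counted, so nothing is read from these. DESeq2 called 0 of the 45 lower and 2 higher, where over all genes it called 2879 lower and 2725 higher. The 4 genes called higher in the edgeR fit were Cre01.g010201_4532.v6.1, Cre08.g377350_4532.v6.1, Cre03.g164250_4532.v6.1 and Cre15.g639503_4532.v6.1. Their log2 fold changes were 0.42 (SE 0.07), 0.41 (SE 0.10), 0.33 (SE 0.12) and 0.40 (SE 0.15). With scaling by library size alone, 9 of the 45 were called lower in crskip-1. Over all genes that scaling called 4879 lower, against 3359 with TMM, so nothing is read from the 9. With lane as a term in the edgeR fit, 2 were called lower, Cre01.g027950_4532.v6.1 at log2 -0.17 (adjusted p = 0.0426, and 0.00246 to 0.289 over the 16 alternative fits) and Cre03.g204150_4532.v6.1 at log2 -0.16 (adjusted p = 0.0453, and 0.00306 to 0.381). Over all genes that fit called 3537 lower in crskip-1.

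A gene that was not called is not shown to be unchanged. The 95% interval of the crskip-1 fold change lay wholly inside the window for 14 of the 45 genes, reached below it for 10 and reached above it for 22. On the libraries themselves, the crskip-1 and wild-type values of 16 of the 45 genes had no overlap. In 12 of these crskip-1 was the lower, where 40.5% of genes tested had every crskip-1 library below every wild-type library, and in 4 it was the higher, where 16.6% did. The rule also fixed crpaf1-1 below crskip-1, so nothing is read from the direct fit of the mutants, in which 45 of 45 genes were called lower in crpaf1-1 and 28.2% of genes tested were, with log2 differences from -2.08 to -0.997 and a median of -1.29.

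The spread between replicates was compared without a test. The coefficient of variation over 3 libraries had a median over the 45 genes of 13.9% in crpaf1-1, 9.31% in crskip-1 and 6.55% in wild type. The counts behind the crpaf1-1 values are lower, and the part of counting noise in this was not tested. For 26 of the 45 genes the highest crpaf1-1 value was that of replicate 3. The widest spread was that of Cre12.g492851_4532.v6.1 (minus strand, chromosome 12, bases 709049 to 716192, 11 exon blocks), in which the crpaf1-1 libraries gave 2.28, 0.561 and 0.948 CPM, those of crskip-1 4.29, 2.92 and 3.95 CPM and those of wild type 4.4, 2.71 and 2.34 CPM. Its crpaf1-1 replicate 1 lay just under the lowest wild-type library, and the gene overlaps 2 genes on the opposite strand, both lower in crpaf1-1 (log2 -1.73 and -0.41). Cre02.g147750_4532.v6.1 (plus strand, chromosome 2, bases 7633523 to 7639063, 7 exon blocks) came next, where the crpaf1-1 libraries gave 1.01, 1.57 and 2.84 CPM, those of crskip-1 4.79, 3.97 and 3.24 CPM and those of wild type 4.46, 3.78 and 2.9 CPM, with crpaf1-1 replicate 3 close to wild type.

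Ratios taken within a replicate number give the spread in another way. The file headers carry a suffix, read here as the sequencing lane, by which lane 3 held the replicates numbered 1 and lane 2 all others. The median ratio of crpaf1-1 to wild type over the 45 genes was 0.415 in replicate 1, 0.430 in replicate 2 and 0.469 in replicate 3, and it was at most 0.5 for 39, 40 and 28 genes. It was at most 0.5 in all 3 numbers for 19 genes. The crskip-1 ratio lay in the window in all 3 numbers for 23 genes. These are libraries the rule used, and the numbers are not known to pair the samples. Shares over all nuclear genes in all 3 numbers were not counted, so nothing is read from the 19 and the 23. From the lane 2 libraries alone, the median ratio of crpaf1-1 to wild type was 0.458, with 37 of the 45 genes at most 0.5. That of crskip-1 was 0.970, with 37 in the window. The rule used these libraries too, and shares over all nuclear genes in lane 2 were not counted, so nothing is read from either count. Lane 3 holds 1 library per group, whose ratios are those of replicate 1.

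The rule was then applied to 2 replicate numbers at a time, and the genes it found were read in the libraries of the number left out, which had no part in choosing them. Without replicate 1 the rule found 37 genes, 29 of them among the 45. In replicate 1 these had a median crpaf1-1 ratio of 0.431 (range 0.236 to 0.617), and 31 of 37 were at most 0.5, where 5.24% of nuclear genes with a mean of 2 CPM or more were. Without replicate 2 it found 38 genes, 32 of them among the 45. In replicate 2 their median was 0.436 (range 0.192 to 0.813), and 30 of 38 were at most 0.5, against 4.97% of nuclear genes. Without replicate 3 it found 63 genes, 41 of them among the 45. In replicate 3 their median was 0.509 (range 0.247 to 0.981), and 29 of 63 were at most 0.5, against 5.19%. In each case all genes chosen were below wild type in the library left out, 37 of 37, 38 of 38 and 63 of 63, where 42.7%, 39.7% and 42.6% of nuclear genes were. With 1 library per group in the number left out, this comparison has no test.

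Nearness to wild type in crskip-1 carried over less well. In the number left out, the crskip-1 ratio lay in the window for 24 of 37, 31 of 38 and 42 of 63 genes, where 61.0%, 63.7% and 58.5% of all nuclear genes with 2 CPM or more did. Its median was 0.862, 0.958 and 0.933, and it ranged from 0.553 to 2.04 over the 3 readings. Both bounds were met in the number left out by 20, 26 and 18 genes. The share of all nuclear genes that met both bounds there was not counted, so nothing is read from these counts.

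**Figure D4:**
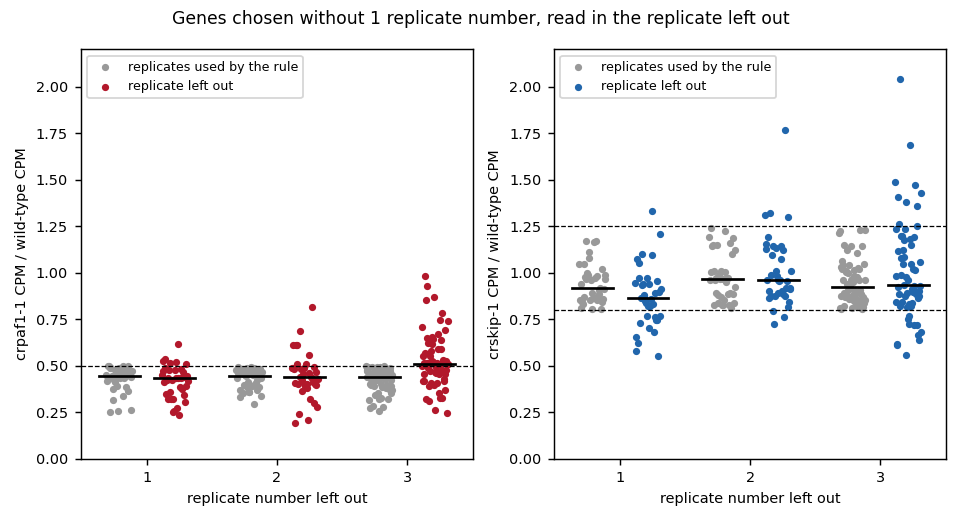
Points are genes chosen by the rule without 1 replicate number, with the ratio of mutant to wild-type CPM on the vertical axis, for crpaf1-1 on the left and crskip-1 on the right. Grey points are the replicates the rule used, coloured points the replicate left out, black bars medians and dashed lines the bounds; the crpaf1-1 medians in the replicate left out are 0.431, 0.436 and 0.509, and the crskip-1 points spread past both bounds.

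The structure of the genes had no part in the rule. The 45 genes had a median of 11 exon blocks, against 9 in the other 570 genes at or below 0.5 times wild type in crpaf1-1 and 8 in the 12279 nuclear genes. Of the 45, 24 (53.3%) had 11 to 20 blocks, where 145 of the 570 (25.4%) and 3125 of the 12279 (25.4%) did. Genes with a single block numbered 0 of 45, against 4 of the 570 (0.702%) and 494 of 12279 (4.02%). Those with over 20 blocks numbered 2 of 45 (4.44%), against 97 of the 570 (17.0%) and 964 of 12279 (7.85%). The lack of genes with a single block is thus shared with the other 570, which hold a larger share of genes with over 20 blocks. Median exonic length was 4005 bases in the 45 genes, 3700.5 in the other 570 and 2982 in all nuclear genes, and median span was 6704, 5748.5 and 4945 bases. Introns took a median of 39.6% of the span, against 32.0% in the other 570 genes and 38.0% in all nuclear genes. The 45 genes lay on 16 of the 17 chromosomes, with 7 (15.6%) on chromosome 12, where 10.1% of nuclear genes lay, and the IDs of 2 name a chromosome other than the one the files place them on.

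Orientation to the neighbouring gene was counted as well. Measured to the next gene on the 5′ side, 13 of the 45 genes (28.9%) stood head to head with it, so that the pair is transcribed away from each other. The share was 277 of 570 (48.6%) in the other genes at or below 0.5 times wild type in crpaf1-1 and 6815 of 12264 (55.6%) in nuclear genes with a 5′ neighbour. The share differed between expression levels, from 46.5% of nuclear genes at 2 to 5 CPM to 59.1% at 20 to 50 CPM. The part of expression level in the share of the 45 genes was not tested. On the 3′ side, 25 of the 45 (55.6%) stood tail to tail with the next gene, against 52.9% of the other 570 and 52.9% of nuclear genes. These are counts of genes picked by their levels, given without a test.

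**Figure D5:**
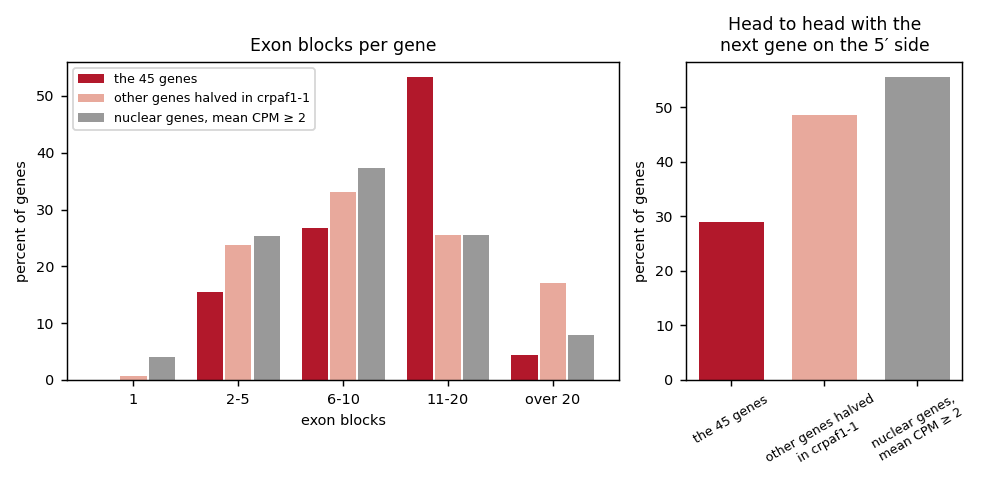
Bars give the percent of genes in each class of exon blocks (left) and the percent that stand head to head with the next gene on the 5′ side (right), both from 0, for the 45 genes, the other 570 genes at or below 0.5 times wild type in crpaf1-1 and the nuclear genes with 2 CPM or more. The 45 genes have 53.3% in the class of 11 to 20 blocks and 28.9% head to head.

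The genes on either side of the 45 were not chosen by level. Of 90 such neighbours 86 were tested, of which 22 (25.6%) were called lower and 25 (29.1%) higher in crpaf1-1 than in wild type, where 29.8% and 28.6% of all genes tested were. Their median log2 fold change was -0.02, and 4 of the 86 were at least 2-fold lower. All 4 were also called lower in crskip-1. Cre01.g028000_4532.v6.1, beside Cre01.g027950_4532.v6.1, had a log2 fold change of -1.83 in crpaf1-1 and -2.37 in crskip-1, with means of 0.375 CPM for crpaf1-1, 0.221 CPM for crskip-1 and 1.27 CPM for wild type. The other 3 overlap the gene they neighbour on the opposite strand and are given with such partners in the next paragraph.

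Whether reads were counted by strand is unknown from the sources used here, so reads of a gene and of one that overlaps it on the opposite strand cannot be told apart. Overlaps on the same strand occur too: of the 90 neighbours, 40 overlap the gene they neighbour, on either strand. Of the 45 genes 20 (44.4%) overlap such a gene, against 37.6% of nuclear genes, with a median overlap of 181 bases (range 8 to 1448), and their values are uncertain for that reason. Of their 24 partners 23 were tested, of which 6 were lower, 5 higher and 12 not called in crpaf1-1. The partners that were lower by 2-fold or more were those of Cre03.g164250_4532.v6.1, Cre06.g258500_4532.v6.1 and Cre12.g492851_4532.v6.1, at log2 -1.09, -1.45 and -1.73 in crpaf1-1. In crskip-1 these 3 partners were lower as well, at log2 -0.67, -1.47 and -0.89. The part of shared reads in the levels of these members was not tested in either mutant. The largest of the genes by counts that overlap a partner, Cre07.g335750 and Cre03.g204150, have partners whose log2 fold changes were -0.16 and -0.06 and were not called. Of the genes named above, Cre10.g425251, Cre17.g719500, Cre13.g581700 and Cre07.g327750 also overlap a partner, by 169, 65, 193 and 208 bases. So do Cre05.g242200 by 39 and Cre02.g147750 by 246 bases. Gaps to a neighbour on the same strand were -477 bases for Cre07.g335750, -437 for Cre16.g682450 and -269 for Cre17.g718900. For Cre01.g027950 they were -193 and -80, and other named genes overlap so too.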

How the data were processed

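For each library the authors deposited raw counts per gene, whole numbers not normalized; the labels' protocols give oligo(dT) selection and paired-end sequencing, and the submitters' processing notes name Bowtie2 and featureCounts, with no versions. Alignments, per the file headers, were uniquely mapped with duplicates removed, which lowers counts of abundant genes and of near-identical copies. Bowtie2 does not split reads over introns, so junction reads may be missing; the part of this in levels of genes with many exons was not tested. One label field names genomic DNA as the molecule, and the values were treated as expression after the protocol.

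From these counts, CPM (count over library total, times 1000000) served for the rule and printed levels. Fold changes come from the quasi-likelihood test of edgeR 4.0.16 in R 4.3.3 with TMM scaling, the default expression filter, all 9 libraries in 1 fit and Benjamini-Hochberg adjustment over 13376 genes; SE is the log2 fold change over the square root of F. The edgeR step was run on simulated counts with equal numbers of genes lowered and raised in crpaf1-1. That run does not show how the scaling behaves in these data, and nothing is read from it. DESeq2 1.42.0 was an alternative. Exon blocks, spans and neighbours come from the deposited coordinates, whose assembly is named only by the ID suffix. Of 14621 IDs, 13245 (43 of the 45) matched a locus tag of the reference table (assembly Chlamydomonas_reinhardtii_v5.5), which gave 0 symbols beyond locus tags. Promoters, proteins and products were planned but not analysed here.

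The members, gene lists and tests were chosen with earlier results of these data known. Genes were named by rule: the 12 members with the most wild-type CPM, the 12 with the lowest crpaf1-1 ratio at 5 CPM or more, those with 1 or over 20 exon blocks, adjacent members, and those at the bound; others (Cre12.g492851, Cre08.g377350, Cre03.g164250, Cre06.g258500 and the neighbours and partners) were named after their values were seen.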

Additional observations from a re-analysis of the deposited data

How the results depend on the processing

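The list is sensitive to where its bounds lie. The rule found 45 genes, 78 with TMM-scaled CPM (40 of them among the 45), 78 with no minimum level, 9 with crpaf1-1 at most 0.4 times wild type, 116 with at most 0.6 times, and 22 with crskip-1 between 0.9 times wild type and its inverse. With 1 library left out it found 37 to 54 genes, 24 of the 45 stayed in all 9 such runs, and the fewest (33 of the 45) stayed without wild type replicate 1. With replicates 2 and 3 only it found 37. The median crpaf1-1 ratio in the replicate number left out was 0.431 for replicate 1, 0.436 for replicate 2 and 0.509 for replicate 3. Of the 45 genes, 0 to 2 were called lower in crskip-1 than in wild type in the alternative fits other than library size alone, where 9 were. Scaling by library size alone brought the genes called higher in crskip-1 than in wild type to 1863, against 3259 with TMM. It brought those called lower to 4879, against 3359. In crpaf1-1 against crskip-1 it brought 1924 lower and 6325 higher genes, against 3769 and 3433. In their deviations from group means, the libraries numbered 1, which share the suffix read as lane 3, correlated at 0.123 to 0.255. Those numbered 2 correlated at -0.0188 to 0.0585 and those numbered 3 at -0.0454 to 0.128. Number 1 and lane 3 are the same libraries, so the lane cannot be told apart from anything else they share. Libraries of unlike number within lane 2 correlated at -0.0257 to 0.135, as high as any pair numbered 2 or 3. The highest value of number 3 was above the lowest of number 1, so whether numbers pair the samples is not settled. With the replicate block, 8176 genes were called in crpaf1-1 against wild type (7806 without it), 7004 in crskip-1 against wild type (6618) and 7579 between the mutants (7202). With lane as a term, an alternative chosen after seeing the data, the counts were 8146, 6992 and 7537. Among members with no overlap on the opposite strand, also chosen after seeing the data, 5 of 25 stood head to head with the next gene on the 5′ side. Leaving out overlapping genes itself removes head-to-head and tail-to-tail pairs, and 8 of these 25 stood tail to tail. The same share was not counted for other genes without such overlap, so the 5 of 25 has nothing to be set against. Low counts limit the genes under 5 CPM most.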
